A study of Mus musculus with 14 samples.

Results

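In cultured C2C12 myoblasts, muscle precursor cells of mouse that can fuse into fibres, 49 genes had lower mean RNA levels both after depletion of the Qk5 isoform of the RNA-binding protein Quaking and after depletion of its Qk6 and Qk7 isoforms. They were chosen by those means among the 1036 genes of the authors' deposited expression table. A member had an authors' control mean of at least 20 normalized counts and a log2 ratio of depleted over control mean of at most -0.5 in each depletion. These values were met by 62 genes, of which 13 were left out because they are among 21 named genes of interferon, xenobiotic, lysosomal, p53 and Id groups. Because the means chose the members, their lower levels are a description, and no test below supports them.

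The design asked which RNAs change with 1 class of Quaking isoform and which with both. Cells received control siRNA, Qk5-specific siRNA or Qk6/7-specific siRNA by transient transfection with Lipofectamine, a lipid reagent, in high-glucose DMEM with fetal bovine serum. Each group had 3 replicates, and replicate 1 of each was sequenced in 2 runs. A pan-Qk depletion with 1 replicate was not analysed here. TRIzol was used to extract RNA, and ribosomal RNA was removed with RiboZero. The labels do not say that replicates were separate cultures, so the authors' p-values reflect only how these samples varied, and that variation may be technical. The authors' deposited table gives 1 mean per condition and no value per replicate, so the depth per sample is unknown and no SD or interval accompanies a level. Both comparisons share the control samples, so a high control mean lowers both ratios at once, and no overlap test was made.

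Quaking is a STAR-family protein that binds RNA at a core written ACTAAC or ACTAAT in DNA letters. Qk5 carries a nuclear localization signal and is known in muscle cells for its control of alternative splicing, while Qk6 and Qk7 differ from it in their C-terminal ends and are known mainly for acting on the stability and translation of messages. For the Qk gene as a whole the authors' mean was 5875 normalized counts in control cells, 3267 in Qk5 depletion and 5270.9 in Qk6/7 depletion. Qk fell with Qk5 depleted, per the authors' deposited table (log2 -0.85, adjusted p = 0.00246) and did not pass in Qk6/7 depletion (log2 -0.16, adjusted p = 1). These values do not separate the isoforms.

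Sequences in the 3′ untranslated regions (UTRs) of the members are shown first because the rule did not read them. The 4 words searched, on the sense strand, have 7 bases each, and earlier results of these data had found them in the UTRs of lowered genes, members among them, so the shares below are not independent evidence. CTCTGAA and CCTCTGA, called the CTCTGAA pair here, overlap in CCTCTGAA. GTCTTAA and GGTCTTA, called the GTCTTAA pair, overlap in GGTCTTAA. In the lines that follow, capitals mark the word, or the union of both words of a pair where they overlap. Each line is 30 bases of the longest annotated 3′ UTR in GENCODE M21, on GRCm38. Shown are the genes called in both depletions that hold a word, and examples of members with an 8-base union or with both pairs close together.

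Slc22a23 (chr13:34182730-34182759, minus strand): ctggaaataacCCTCTGAAgactttctttt

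Slc22a23 (chr13:34180344-34180373, minus strand): gaacgttaaaaGGTCTTActctccacccat

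Chic1 (chrX:103395984-103396013, plus strand): aaggctacctgCCTCTGAAactcccactgc

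Chic1 (chrX:103390441-103390470, plus strand): agtctttaaatGTCTTAAgagctgggcaca

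Crebzf (chr7:90445319-90445348, plus strand): gtgttctgatgCTCTGAAatgcaagagaca

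Crebzf (chr7:90445297-90445326, plus strand): tttgtccacttGTCTTAAgtgtgtgttctg

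Cdk19 (chr10:40480022-40480051, plus strand): tcctgatgaagCCTCTGAtctacccagcac

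Blvra (chr2:127097000-127097029, plus strand): agcttcagataCCTCTGAAacggggccagg

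Blvra (chr2:127097023-127097052, plus strand): ggccagggtttGGTCTTAtcaacactttag

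Sqrdl (chr2:122809456-122809485, plus strand): acctttctaggCCTCTGAAtagctatcatg

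Lrp11 (chr10:7624131-7624160, plus strand): tctgctaaataCCTCTGAAaaaggatctta

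Zmpste24 (chr4:121060152-121060181, minus strand): gcttttaagaaGGTCTTAAttttaaaccag

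Zmpste24 (chr4:121060025-121060054, minus strand): agtcaaactggGGTCTTAAaggtggtagag

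In Crebzf the words of both pairs lie close together, at positions 1217 and 1239 of a 3′ UTR of 2013 bases. Blvra has a 3′ UTR of 91 bases, in which CCTCTGAA starts at position 18 and GGTCTTA at position 41. The 8-base CCTCTGAA was present in 7 of the 45 members with an annotated 3′ UTR, or 15.6%, against 5.37% of all annotated genes. It was present in 28.4% of other genes called lower in Qk5 depletion and in 5.62% of other genes called lower in Qk6/7 depletion. The 8-base GGTCTTAA was present in 2 members, Slc38a6 and Zmpste24, or 4.44%, against 2.23% of all annotated genes. It was present in 2.75% of other genes called lower in Qk5 depletion and in 14.6% of other genes called lower in Qk6/7 depletion. For CCTCTGAA the members' share thus lay between that of all annotated genes and that of the other genes called lower in Qk5 depletion. For GGTCTTAA the members' share rests on 2 genes, so no order is read from it. These differences were not tested.

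Of the same 45 members, 57.8% held a word of the CTCTGAA pair and 35.6% a word of the GTCTTAA pair in some annotated 3′ UTR. Among 20997 annotated genes these shares were 26.9% and 14.5%. Other genes called lower in Qk5 depletion held the CTCTGAA pair in 70.6% and the GTCTTAA pair in 13.8%. Other genes called lower in Qk6/7 depletion gave the opposite order, with 28.1% and 38.2%. The members thus stood above the annotated genes for both pairs, where each set of other called genes stood above them mainly for 1 pair. These sets are not genes lowered in 1 depletion only, since genes left out by name, such as Ifit1, are in both. Of the members, 13 were called in Qk5 depletion alone and 20 in Qk6/7 depletion alone. No test was made of these differences either. Both pairs together occurred in 12 members, or 26.7%, against 11.9% of other genes called lower in Qk5 depletion, 14.0% of other genes called lower in Qk6/7 depletion, 8.06% of the 633 other genes of the table with a UTR and 6.58% of annotated genes.

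UTR length moves with these shares, since a longer UTR holds more words by its length alone. The members' median longest 3′ UTR was 1182 bases, that of all annotated genes 962. Among the 23 members with a 3′ UTR of at least 1000 bases, a subset chosen after the data were seen, 82.6% held the CTCTGAA pair and 60.9% the GTCTTAA pair. Annotated genes with such UTRs held them in 43.7% and 25.3%. Lengths still differed in this subset, with a median of 2981 bases in the members and 2073 in annotated genes. In other genes called lower in Qk5 and in Qk6/7 depletion the medians were 2213 and 2519. The subset thus does not match the sets for length. Both pairs occurred in 47.8% of these members, in 20.3% and 20.2% of other genes called lower in Qk5 and in Qk6/7 depletion, and in 12.9% of such annotated genes. The Quaking core words ACTAAC and ACTAAT did not follow this order. They occurred in 28.9% of the members against 33.3% of annotated genes, and in 47.8% against 54.1% at UTRs of at least 1000 bases.

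**Figure D1:**
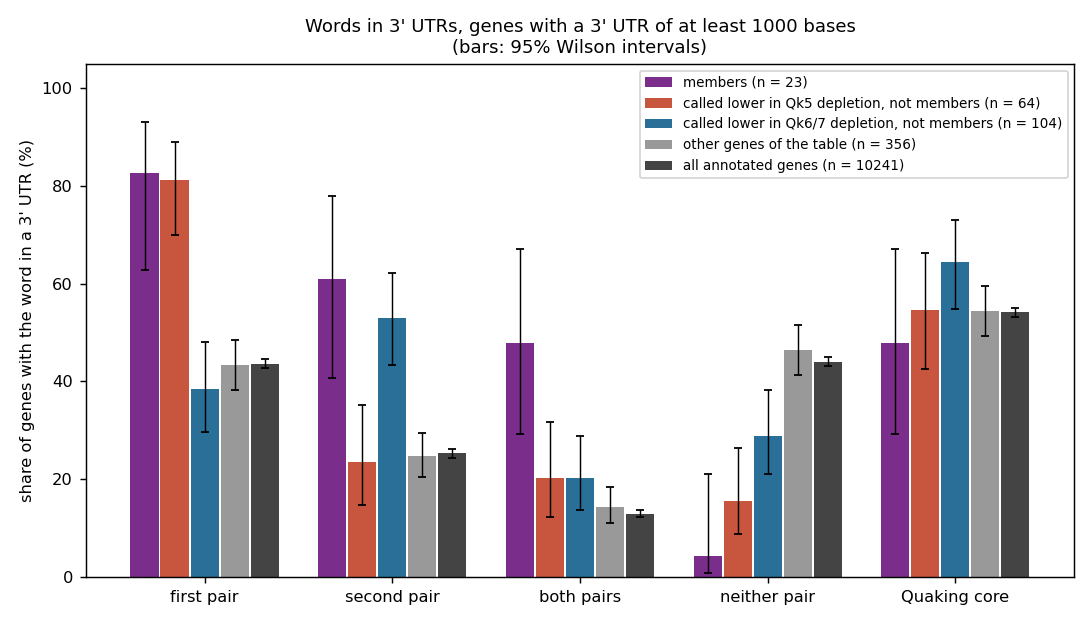
Share of genes (%) with a word in an annotated 3′ UTR, for genes with a 3′ UTR of at least 1000 bases, where first pair is CTCTGAA or CCTCTGA, second pair is GTCTTAA or GGTCTTA, and error bars are 95% Wilson intervals that cover counting error only. The 23 members (purple) reach 82.6% for the first pair and 60.9% for the second, and the Quaking core words are at 47.8%. The sets are not matched for UTR length, and the first and second pairs, unlike the core words, came from earlier results of these data.

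The word content varied with the control mean. Of 16 members with a UTR and a control mean of at least 400, 15 held a word of either pair and 10 held both. The exception was Krt19. Of 21 members with a control mean under 100, 10 held a word of either pair and 1 held both. Median longest UTR differed as well, at 3172 bases in the former and 566 in the latter, so level, UTR length and words cannot be told apart in these members. The 12 members with both pairs had median log2 ratios of -0.81 in Qk5 depletion and -0.81 in Qk6/7 depletion. For the 15 members with neither pair the medians were -0.91 and -1.23, and 11 of those 15 had a control mean under 100.

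Among 1679 mature mouse miRNAs of RefSeq, 1 had the reverse complement of a searched word within its first 8 bases. It was mmu-miR-499-5p, a miRNA of heart and skeletal muscle known from an intron of a myosin gene. Its sequence is shown with its seed, bases 2 to 8, in capitals, and its first 7 bases are the reverse complement of GTCTTAA. The match thus does not cover the whole seed, and the other searched words had no such match. No level of this miRNA was analysed here. The sequences of the siRNAs used for depletion were not searched for these words. Whether a miRNA or an siRNA pairs with these UTRs was not tested.

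mmu-miR-499-5p: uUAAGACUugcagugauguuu

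Over all 49 members the median log2 ratio was -0.89 in Qk5 depletion and -1.16 in Qk6/7 depletion, beside 0.45 and -0.11 over the genes of the table. The ratios ran from -2.53 (Lass3) to -0.50 (Tmem18) in Qk5 depletion and from -2.93 (Gbp5) to -0.52 (Pacs2) in Qk6/7 depletion. In 31 members the Qk6/7 value was the lower of the pair and in 18 the Qk5 value, and 12 members had both within 0.25. The level was at or under a log2 ratio of -1 in 17 members in Qk5 depletion, in 32 in Qk6/7 depletion and in 7 in both. Control means ran from 20.4 normalized counts for Hs3st1, which encodes a heparan sulfate sulfotransferase, to 5614 for Pacs2, which encodes a sorting protein of the endoplasmic reticulum and mitochondria. Normalized counts are not per length, so levels are compared within a gene only. Where 3 means are listed for a gene below, they are in the order control, Qk5 depletion and Qk6/7 depletion.

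**Figure D2:**
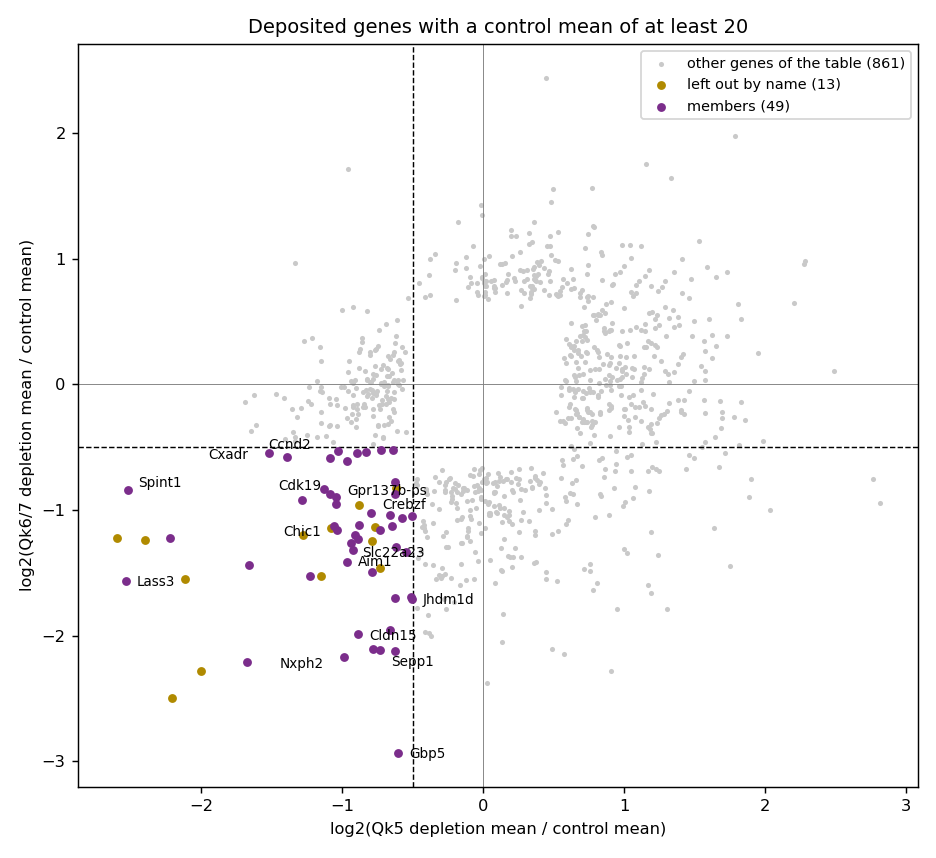
Each point is a gene with an authors' control mean of at least 20, with the log2 ratio in Qk5 depletion on the x axis and in Qk6/7 depletion on the y axis. The 49 members (purple) and 13 genes left out by name (yellow) lie at or under -0.5 on both axes (dashed lines), and the empty centre reflects that the table is limited to genes under adjusted p 0.1 in either comparison.

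At the authors' adjusted p under 0.05, 19 members were called lower in Qk5 depletion, where 12.8% of the table's genes and 0.801% of all genes tested were called lower. In Qk6/7 depletion 26 members were called lower, where the shares were 20.7% of the table and 1.29% of all genes tested. Both calls held for 6 members, beside 1.35% of the table. The rule used these same contrasts, so nothing is read from the counts. A further 13 members were called in Qk5 depletion alone, 20 in Qk6/7 depletion alone and 10 in neither. An unadjusted p under 0.05 in both comparisons of the authors' deposited table was found for 32 members. No share over the table was computed for an unadjusted p, and the rule used these contrasts. Nothing is therefore read from this count or from the other counts at an unadjusted p below. A miss in 1 depletion does not show that the depletions differ, and the authors' deposited table holds no test between them. Fewer cells of a type and less RNA per cell cannot be told apart in these bulk samples.

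**Figure D3:**
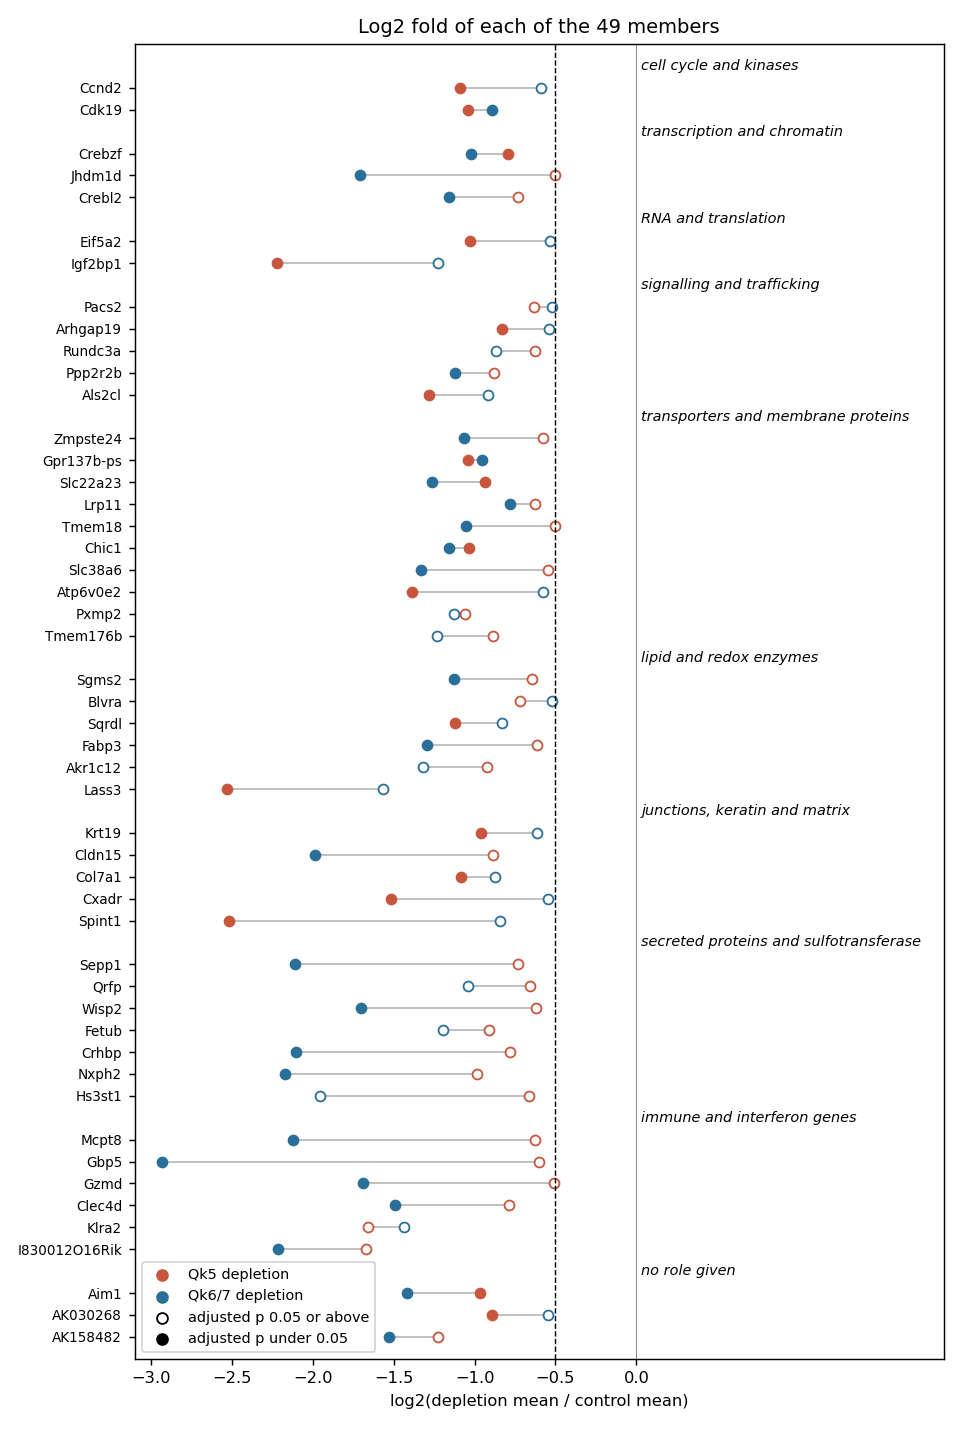
Log2 ratio of depleted over control mean (x axis) for each of the 49 members (y axis), grouped by role and sorted by control mean, with red points for Qk5 depletion and blue for Qk6/7 depletion. Filled points mark adjusted p under 0.05 in the authors' deposited table, and 6 members have both points filled.

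The 6 members called in both depletions all had control means of at least 400 normalized counts. Cdk19 encodes a kinase of the Mediator complex, which links transcription factors to RNA polymerase. The authors' mean of Cdk19 was 1705 in control cells, 829.7 in Qk5 depletion and 917 in Qk6/7 depletion. Cdk19 fell in both in the authors' deposited table (log2 -1.04, adjusted p = 0.00102, and log2 -0.89, adjusted p = 0.00735). Both depleted means were near 50% of control, at 48.7% and 53.8%.

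Crebzf encodes a leucine-zipper transcription cofactor. The authors' mean of Crebzf was 1400.0 in control cells, 808 in Qk5 depletion and 689 in Qk6/7 depletion. It fell in Qk5 depletion (log2 -0.79, adjusted p = 0.0225) and in Qk6/7 depletion (log2 -1.02, adjusted p = 0.00180) in the authors' deposited table. Of the 6 genes it had the least fall in Qk5 depletion.

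Slc22a23 encodes a membrane protein of the organic ion transporter family. For Slc22a23 the authors' mean was 1000.4 in control cells, 524 in Qk5 depletion and 417 in Qk6/7 depletion. The gene fell in both in the authors' deposited table (log2 -0.93, adjusted p = 0.00602, and log2 -1.26, adjusted p = 2.42e-05). Its 3′ UTR of 3796 bases holds both pairs of words, as the sequences above show.

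Chic1 encodes a cysteine-rich membrane-associated protein. For Chic1 the authors' mean was 482 in control cells, 235 in Qk5 depletion and 216 in Qk6/7 depletion. It fell by 1.03 on the log2 scale in Qk5 depletion (adjusted p = 0.00682) and by 1.16 in Qk6/7 depletion (adjusted p = 0.00159), per the authors' deposited table. Chic1, unlike the other 5, was at or under a log2 ratio of -1 in both depletions.

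Gpr137b-ps is annotated as a pseudogene of Gpr137b, which encodes a lysosomal membrane protein. The authors' mean of Gpr137b-ps was 1900.4 in control cells, 924 in Qk5 depletion and 982 in Qk6/7 depletion. It fell in both in the authors' deposited table (log2 -1.04, adjusted p = 0.00108, and log2 -0.95, adjusted p = 0.00366). Gpr137b, 1 of the genes left out by name, had authors' means of 2959, 1610.5 and 1522. Reads can be shared between near-identical copies, so whether the pseudogene changed apart from Gpr137b is uncertain.

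The symbol Aim1 is an older name of 3 genes in RefSeq, so no role or sequence is given for it. The authors' mean listed under Aim1 was 1534 in control cells, 786 in Qk5 depletion and 575 in Qk6/7 depletion. The authors' deposited table has it lower in both (log2 -0.97, adjusted p = 0.00653, and log2 -1.41, adjusted p = 6.11e-07). Its Qk6/7 ratio was the lowest of the 6 genes.

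**Figure D4:**
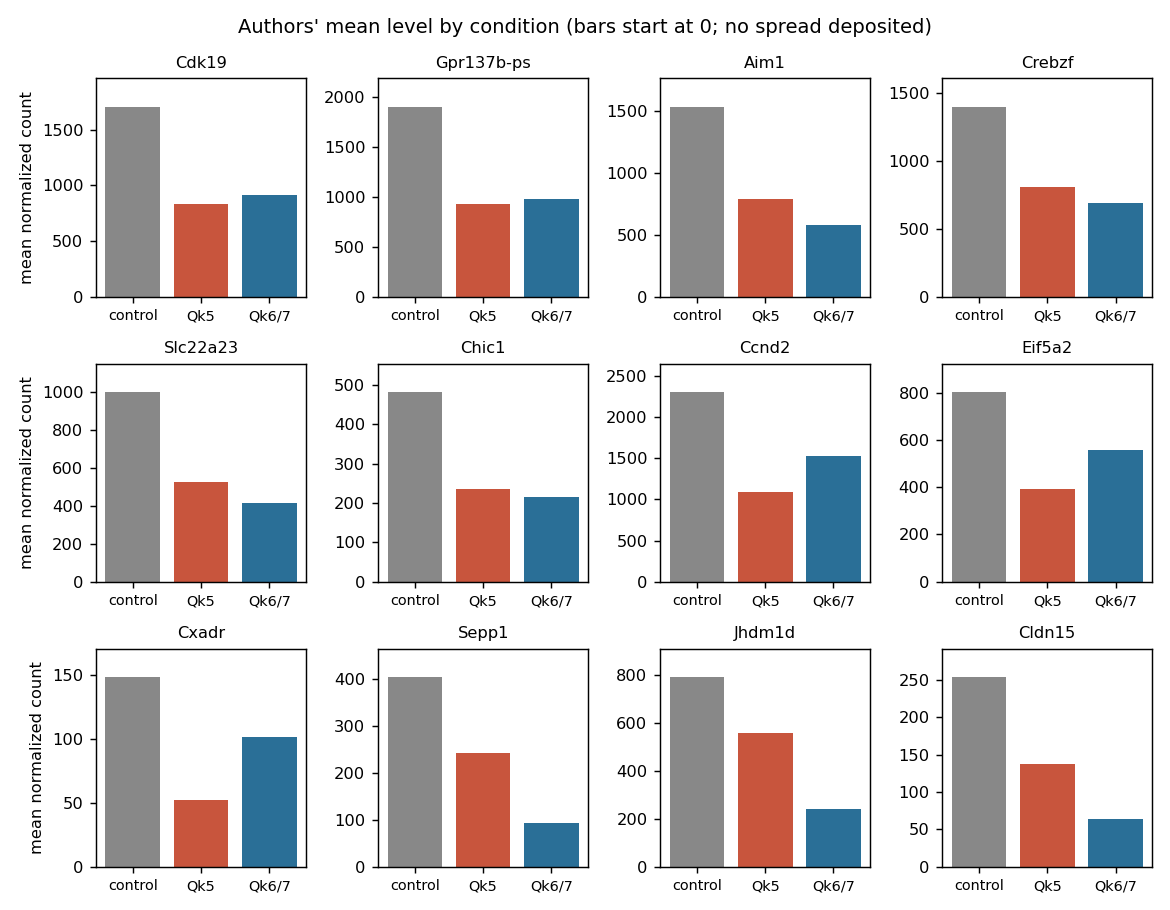
Authors' mean level in normalized counts (y axis, from 0, own scale per gene) in control cells (grey), Qk5 depletion (red) and Qk6/7 depletion (blue) for the 6 members called in both depletions and the 3 with the largest gap between depletions in each direction among members with control means of at least 100. The bars carry no spread, and Ccnd2, Eif5a2 and Cxadr are lowest in Qk5 depletion while Sepp1, Jhdm1d and Cldn15 are lowest in Qk6/7 depletion.

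Among members with control means of at least 100 normalized counts the Qk5 ratio lay furthest under the Qk6/7 ratio in Cxadr, Ccnd2 and Eif5a2. Ccnd2 encodes cyclin D2, which drives entry into S phase with its kinase partners. The authors gave it a mean of 2305 in control cells, 1084 in Qk5 depletion and 1531 in Qk6/7 depletion. Ccnd2 fell with Qk5 depleted, per the authors' deposited table (log2 -1.09, adjusted p = 1.14e-04) and did not pass in Qk6/7 depletion (log2 -0.59, adjusted p = 0.162). On the cell cycle and mitosis list 3 of 49 genes were in the table, and Ccnd2 was the only call in either direction.

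Eif5a2 encodes an isoform of translation factor eIF5A, which helps ribosomes through difficult peptide bonds. The authors' mean of Eif5a2 was 803 in control cells, 394 in Qk5 depletion and 556 in Qk6/7 depletion. It fell with Qk5 depleted, per the authors' deposited table (log2 -1.03, adjusted p = 3.69e-04), with log2 -0.53 and adjusted p = 0.408 in Qk6/7 depletion. Igf2bp1, an RNA-binding protein gene named after its values were seen, was at a low level, with authors' means of 26.0, 5.58 and 11.1. It was called with Qk5 depleted, per the authors' deposited table (log2 -2.22, adjusted p = 0.0434).

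Cxadr encodes a cell adhesion protein of tight junctions that is also a virus receptor. The authors' mean of Cxadr was 148 in control cells, 51.8 in Qk5 depletion and 101 in Qk6/7 depletion. It fell with Qk5 depleted, per the authors' deposited table (log2 -1.51, adjusted p = 4.76e-05), with log2 -0.55 and adjusted p = 0.775 in Qk6/7 depletion. Over all 49 members 19 were called in Qk5 depletion and 26 in Qk6/7 depletion, beside 12.8% and 20.7% of the table's genes. Of the 5 members grouped as junction, keratin and matrix genes, 4 were called in Qk5 depletion and 1 in Qk6/7 depletion. Nothing is read from counts in groups this small. Besides Cxadr, the calls of this group in Qk5 depletion were Krt19, an epithelial keratin, Col7a1, the collagen of anchoring fibrils, and Spint1, an inhibitor of serine proteases. These were named after their values were seen.

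Cldn15, a claudin of tight junctions, was the junction gene called in Qk6/7 depletion. Mean levels by the authors' table were 254 in control cells, 137 in Qk5 depletion and 63.9 in Qk6/7 depletion. Cldn15 fell with Qk6/7 depleted, per the authors' deposited table (log2 -1.99, adjusted p = 1.83e-09), with log2 -0.88 and adjusted p = 0.0613 in Qk5 depletion. Among members with a control mean of at least 100 it had the lowest sum of both log2 ratios.

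Sepp1 (now Selenop) encodes selenoprotein P, a secreted carrier of selenium. The authors' mean of Sepp1 was 403 in control cells, 243 in Qk5 depletion and 93.2 in Qk6/7 depletion. Sepp1 fell with Qk6/7 depleted, per the authors' deposited table (log2 -2.11, adjusted p = 2.72e-12), with log2 -0.73 and adjusted p = 0.389 in Qk5 depletion. Of the 7 members grouped as secreted proteins and a sulfotransferase, 4 were called in Qk6/7 depletion and 0 in Qk5 depletion by the authors' DESeq adjusted p. Over all 49 members these calls numbered 26 and 19. In Qk5 depletion 3 of the 7 had an unadjusted p under 0.05, beside 36 of all 49 members.

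Wisp2 (now Ccn5), a secreted protein of the CCN matricellular family, was another of the secreted group's calls in Qk6/7 depletion. The authors' mean for Wisp2 was 70.4 in control cells, 45.8 in Qk5 depletion and 21.6 in Qk6/7 depletion. Wisp2 fell with Qk6/7 depleted, per the authors' deposited table (log2 -1.70, adjusted p = 9.84e-04), with log2 -0.62 and adjusted p = 0.523 in Qk5 depletion. Hs3st1, at the lowest control mean, had authors' means of 20.4, 12.9 and 5.26 and was called in neither.

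Jhdm1d (now Kdm7a) encodes a histone lysine demethylase. The authors' mean of Jhdm1d was 792 in control cells, 558 in Qk5 depletion and 243 in Qk6/7 depletion. Jhdm1d fell with Qk6/7 depleted, per the authors' deposited table (log2 -1.71, adjusted p = 3.10e-09), with log2 -0.51 and adjusted p = 0.605 in Qk5 depletion. Jhdm1d was thus barely inside the limit in Qk5 depletion. On the list of transcription factors and chromatin genes 14 of 124 were in the table, with 0 called lower and 4 higher in Qk5 depletion and 5 lower and 3 higher in Qk6/7 depletion.

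Among signalling genes, Ppp2r2b, which encodes a regulatory subunit of protein phosphatase 2A, had authors' means of 146, 79.1 and 66.9. It fell with Qk6/7 depleted, per the authors' deposited table (log2 -1.12, adjusted p = 0.00902), with log2 -0.88 and adjusted p = 0.308 in Qk5 depletion. On the kinase, phosphatase and GTPase signalling list 17 of 91 genes were in the table, with 2 lower and 4 higher calls in Qk5 depletion and 3 lower and 4 higher in Qk6/7 depletion. Pacs2, at the highest control mean, had authors' means of 5614, 3614 and 3912 and was called in neither.

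Sgms2 encodes a sphingomyelin synthase of the plasma membrane and had the highest control mean of the 6 lipid and redox enzyme members. The authors' mean for Sgms2 was 2021 in control cells, 1293 in Qk5 depletion and 927 in Qk6/7 depletion. It fell with Qk6/7 depleted, per the authors' deposited table (log2 -1.12, adjusted p = 1.68e-04), with log2 -0.64 and adjusted p = 0.183 in Qk5 depletion. Sqrdl (now Sqor) encodes the mitochondrial enzyme that oxidizes hydrogen sulfide. Its authors' mean was 278 in control cells, 128 in Qk5 depletion and 156 in Qk6/7 depletion, and it fell with Qk5 depleted, per the authors' deposited table (log2 -1.12, adjusted p = 0.00184), with log2 -0.83 and adjusted p = 0.0668 in Qk6/7 depletion.

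Fabp3, the fatty acid binding protein of heart and muscle, was the member on the lipid and steroid metabolism list. Its authors' mean was 72.9 in control cells, 47.6 in Qk5 depletion and 29.7 in Qk6/7 depletion. Fabp3 fell with Qk6/7 depleted, per the authors' deposited table (log2 -1.30, adjusted p = 0.0323), with log2 -0.61 and adjusted p = 0.937 in Qk5 depletion. Of the 13 genes of that list in the table, out of 87, 0 were called lower and 7 higher in Qk5 depletion, while 8 were called lower and 0 higher in Qk6/7 depletion. Dhrs3, Hpgd and Plin4 were called higher in Qk5 depletion and lower in Qk6/7 depletion. The other calls of this list were in either depletion alone, so they are of different genes. Both ratios of Fabp3 are negative by the rule. The table's own shares were 34.7% called higher in Qk5 depletion and 9.75% called higher in Qk6/7 depletion.

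Of 10 transporter and membrane protein members, 4 were called in Qk5 depletion and 7 in Qk6/7 depletion, beside 19 and 26 of all 49 members. On the solute carrier and ion channel list, which holds Slc22a23, 17 of 93 genes were in the table, with 2 lower and 4 higher calls in Qk5 depletion and 8 lower and 3 higher in Qk6/7 depletion. Zmpste24, named after its values were seen, encodes the protease that matures lamin A. The authors' mean of Zmpste24 was 2210 in control cells, 1484 in Qk5 depletion and 1056 in Qk6/7 depletion, and it fell with Qk6/7 depleted, per the authors' deposited table (log2 -1.07, adjusted p = 6.41e-04). On the lysosome and late endosome list, which holds Gpr137b-ps and 3 of the genes left out by name, 8 of 42 genes were in the table, with 5 lower and 1 higher calls in Qk5 depletion and 5 lower and 0 higher in Qk6/7 depletion.

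The 6 immune and interferon members had low control means, from 26.6 to 85.1 normalized counts. Of these, 5 were called in Qk6/7 depletion and 0 in Qk5 depletion by the authors' DESeq adjusted p, beside 26 and 19 of all 49 members. In Qk5 depletion 2 of the 6 had an unadjusted p under 0.05. The 0 depends on the genes left out by name. Of those, Ifit1, Ifit3 and Rsad2 were called lower in both depletions, Isg15 in Qk5 depletion and Usp18 in Qk6/7 depletion. Gbp5 encodes a guanylate-binding protein induced by interferon. Its authors' mean was 45.4 in control cells, 29.9 in Qk5 depletion and 5.94 in Qk6/7 depletion. It fell with Qk6/7 depleted, per the authors' deposited table (log2 -2.93, adjusted p = 2.38e-06), the lowest Qk6/7 ratio of all 49 members, with log2 -0.60 and adjusted p = 1 in Qk5 depletion.

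I830012O16Rik (now Ifit3b), a gene of the interferon-induced IFIT family named after its values were seen, had authors' means of 26.6, 8.36 and 5.74. It fell with Qk6/7 depleted, per the authors' deposited table (log2 -2.21, adjusted p = 0.0146), with log2 -1.67 and adjusted p = 0.177 in Qk5 depletion. Its reads can be shared with Ifit3, which was left out by name, so its own change is uncertain. On the list of interferon-stimulated genes and antiviral sensors 15 of 52 genes were in the table, 5 of them left out by name here. In Qk5 depletion 5 were called lower and 1 higher, and in Qk6/7 depletion 11 were called lower and 0 higher.

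The other 4 immune members encode proteins known from leukocytes. Gzmd, a granzyme gene of cytotoxic lymphocytes, had authors' means of 44.2, 31.0 and 13.7 and fell with Qk6/7 depleted, per the authors' deposited table (log2 -1.69, adjusted p = 0.0105). Mcpt8, a mast cell protease gene, Clec4d, a lectin receptor gene, and Klra2, a gene of the Ly49 lectin-like receptor family, were named after their values were seen. Of the 8 macrophage marker names searched, in which Adgre1 and Emr1 name the same gene, Cd68 was the only 1 in the table. Its authors' means were 56.6 in control cells, 77.0 in Qk5 depletion and 19.3 in Qk6/7 depletion. The markers of endothelial and adipocyte cells were not among the table's genes. The part of other cells in these levels was not tested.

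The remaining members, named after their values were seen, complete the groups by call. Among the 13 called in Qk5 depletion alone, Lass3 (now Cers3), a ceramide synthase gene, had authors' means of 23.8, 4.13 and 8.05, with log2 -2.53 and adjusted p = 0.0110 for Qk5 depletion in the authors' deposited table. Spint1 had authors' means of 36.9, 6.44 and 20.6, with log2 -2.52 and adjusted p = 6.60e-04 for the same depletion in the authors' deposited table. These were the lowest Qk5 ratios of all 49 members, both at low levels. Krt19 had authors' means of 807, 414 and 528, and Col7a1 of 185, 87.0 and 101. Arhgap19 had authors' means of 1091, 613 and 749.8. Atp6v0e2, a subunit gene of the vacuolar proton pump, had authors' means of 91.2, 34.8 and 61.0. Each of these 4 had its lowest mean in Qk5 depletion. Als2cl and the unannotated transcript AK030268 make up the 13.

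Among the 20 called in Qk6/7 depletion alone, Crhbp, the binding protein gene of corticotropin-releasing hormone, had authors' means of 46.4, 27.0 and 10.8. Nxph2, a neurexophilin gene, had authors' means of 35.2, 17.8 and 7.82. Crebl2, a leucine-zipper factor gene, had authors' means of 149, 89.7 and 66.8. All of these had their lowest mean in Qk6/7 depletion. Slc38a6, of an amino acid transporter family, had authors' means of 325, 222 and 129. Lrp11, of the lipoprotein receptor family, had authors' means of 899, 582 and 524. Tmem18 had authors' means of 789, 556 and 381. Here too the order ran from control to Qk5 to Qk6/7 depletion. The unannotated transcript AK158482 had authors' means of 78.4, 33.5 and 27.2.

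The 10 members called in neither depletion were Pacs2, Blvra, Rundc3a, Qrfp, Pxmp2, Fetub, Tmem176b, Akr1c12, Klra2 and Hs3st1. For 7 of them the unadjusted p in the authors' deposited table was under 0.05 in both depletions. Blvra, the biliverdin reductase gene, had authors' means of 675, 409 and 469.6. Pxmp2, a peroxisomal membrane protein gene, had authors' means of 71.5, 34.3 and 32.7, with adjusted p = 0.0656 and adjusted p = 0.0734 in the authors' deposited table. Klra2 had authors' means of 34.6, 10.9 and 12.8, with adjusted p = 0.0687 and adjusted p = 0.197 in the authors' deposited table. Both ratios of Pxmp2 and of Klra2 were at or under -1.

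Promoters of the immune members were searched because interferon-response genes often carry a repeated GAAA element. The motif GAAA, any 2 bases, GAAA, read on both strands from 250 bases before to 50 bases after the RefSeq start, was present in 5 of the 35 members with a promoter sequence, or 14.3%, against 3.99% of 27025 promoters. The 5 genes were Clec4d, Gbp5, I830012O16Rik, Sepp1 and Sqrdl. Members were counted by gene and the comparison by promoter, and a gene can have more than 1 start, as Sepp1 does. The shares are thus of unlike units, which can raise that of the members. The same motif followed by C was present in Gbp5 and I830012O16Rik, or 5.71% against 0.944%. In the lines below, from RefSeq on GRCm38.p6, capitals mark the match, which lies on the strand opposite to the gene.

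Gbp5 (chr3:142496759-142496788, plus strand): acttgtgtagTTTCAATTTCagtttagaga

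I830012O16Rik (chr19:34607759-34607788, plus strand): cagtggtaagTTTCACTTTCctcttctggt

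I830012O16Rik (chr19:34607793-34607822, plus strand): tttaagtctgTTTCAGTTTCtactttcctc

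Other promoter motifs were counted in the same way, by gene in the members and by promoter in the comparison. TGACNNNGC, a short form of the antioxidant response element, was present in 25.7% of the members against 14.0% of promoters. GCGTG, the core bound by the aryl hydrocarbon receptor, was present in 25.7% against 35.2%, and TATAAA in 8.57% against 15.7%. A match in these windows is a description and not a site.

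Exon use, which the rule did not read, was listed for 2 members. The authors' DEXSeq table tests each exon bin, a stretch of exon used or skipped as a unit, over the 3 conditions together. Sgms2 was the member with a bin under adjusted p 0.05, where 2.7% of the expression table's genes had such a bin and 2.99% had a bin under 0.1. Bin 1 of Sgms2 spans chr3:131021904-131026228 on mm9, minus strand, 4325 bases at the 3′ end of the gene. In the authors' deposited table its use had a log2 ratio of -0.09 in Qk5 depletion and -0.26 in Qk6/7 depletion (adjusted p = 1.66e-04 over the 3 conditions). The upstream bins 2 to 5 of Sgms2 had log2 ratios of 0.09 to 0.12 in Qk5 depletion and 0.25 to 0.40 with Qk6/7 depleted, per the authors' deposited table, none with adjusted p under 0.05. Cxadr had a 4380-base bin 9 with log2 ratios of -0.26 and -0.30 and adjusted p = 0.0712 in the authors' deposited table, and so was not called.

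**Figure D5:**
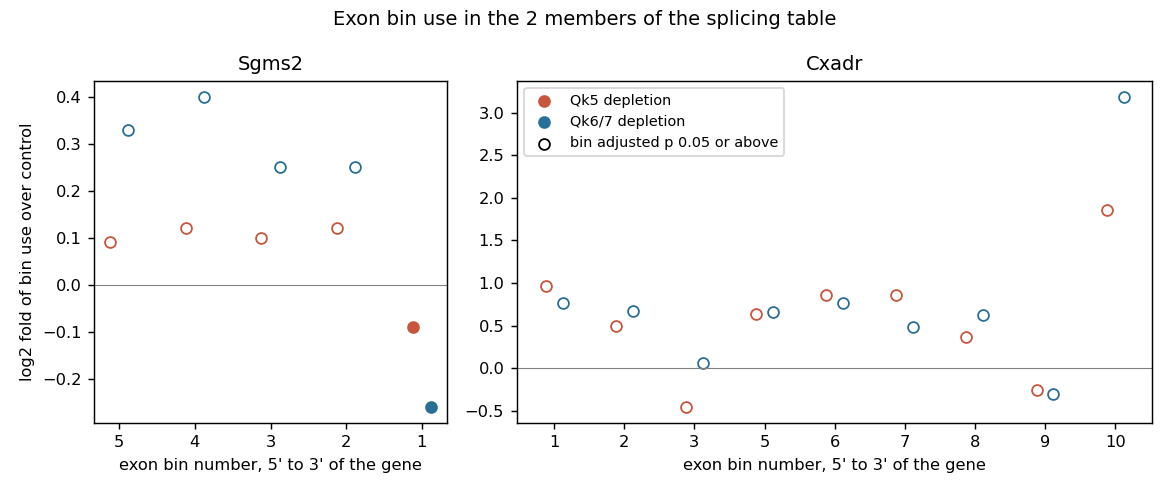
Log2 ratio of exon bin use over control (y axis, own scale per gene) for each bin with an adjusted p, in transcript order (x axis), in Qk5 depletion (red) and Qk6/7 depletion (blue). The filled points mark bin 1 of Sgms2, at -0.09 and -0.26, the bin with adjusted p under 0.05 in the authors' deposited table.

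Among the remaining lists, Wisp2 is the sole member. On the glutathione and xenobiotic list 11 of 49 genes were in the table, 7 of them left out by name, with 3 lower and 0 higher calls in Qk5 depletion and 9 lower and 0 higher in Qk6/7 depletion. The p53 target list had 9 of 32 genes in the table, 3 of them left out by name, with 4 lower and 0 higher calls in Qk5 depletion and 3 lower and 0 higher in Qk6/7 depletion. The list of collagens, matrix proteins and matrix enzymes (13 of 58), which does not include the member Col7a1, had 0 lower and 6 higher calls in Qk5 depletion and 1 lower and 6 higher in Qk6/7 depletion. Col7a1 itself fell in Qk5 depletion (adjusted p = 0.0101, per the authors' deposited table). Complement and acute phase genes (6 of 32) had 0 lower and 4 higher calls, then 3 lower and 1 higher. Adhesion molecules and integrins (7 of 53) had 0 lower and 2 higher, then 1 lower and 2 higher. Membrane receptors (9 of 93) had 2 lower and 1 higher, then 1 lower and 3 higher. Chemokines, cytokines and growth factors (17 of 81), which hold Wisp2, had 3 lower and 10 higher, then 2 lower and 3 higher.

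No gene of the sarcomere and differentiated muscle list was called lower in either depletion. On the sarcomere and differentiated muscle list 19 of 53 genes were in the table, with 0 lower and 16 higher calls in Qk5 depletion and 0 lower and 1 higher in Qk6/7 depletion. The 8 differentiated muscle markers were all in the table and summed to 2679 normalized counts in control cells, 6641 in Qk5 depletion and 3540.2 in Qk6/7 depletion. Counts are not per length, and the long gene Ttn alone had 1367, 3209 and 2000 of these. Each marker was higher than control in Qk5 depletion. In Qk6/7 depletion Mylpf was lower (324 in control and 307) and the others were higher, Tnnc1 only slightly (216 and 218). Of the 6 myoblast markers Myf5 was in the table, with authors' means of 810.0, 969.8 and 1521. The table is limited to genes under adjusted p 0.1, so levels of the other myoblast markers were not analysed here.

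The genes nearest to the limit were close in value. Just inside, the larger of both log2 ratios was -0.50 for Tmem18, a nuclear membrane protein gene linked to body weight, -0.51 for Jhdm1d and -0.51 for Gzmd. Just outside, it was -0.48 for Zfp568, a zinc finger repressor gene, -0.47 for Ets1, a transcription factor gene, and -0.47 for Col6a1, a collagen VI chain gene. All of these outside genes had control means above 1000 normalized counts.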

How the data were processed

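RNA was measured by ribosome-depleted sequencing in C2C12 cells under control, Qk5-specific and Qk6/7-specific siRNA. The authors used Bowtie2, TopHat2, SAMtools, bedtools and DESeq with mm9, per the submitters' processing notes. Versions and counting settings, strand included, are not given in the sources. Per the file headers, the expression table holds the authors' mean signal per condition (size-factor normalized counts), the ratio to control, its log2, a p-value, an adjusted p-value and a direction score. The deposited splicing tables hold log2 ratios of exon bin use, a dispersion score and a DEXSeq p-value. Of 1036 rows, 1 had broken fields and was rejoined.

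No model was refitted. Log2 ratios were recomputed from the deposited means, and calls use the authors' adjusted p under 0.05. Benjamini-Hochberg arithmetic implied 16604 and 16564 genes tested, of which 0.801% and 1.29% were called lower. The 49 members, the 15 gene lists and the words were chosen with earlier results of these data known. Named genes were members called in both depletions, the 10 lowest sums and 3 largest differences of the log2 ratios at control means of at least 100, up to 4 members per list, members with a called bin, genes at the limit, the extremes of control mean, and Qk. RefSeq symbols matched 46 members, GENCODE M21 3′ UTRs 45 and RefSeq promoters 35. For near-identical copies (5 members: Gpr137b-ps, I830012O16Rik, Akr1c12, Gzmd and Klra2) shared reads leave values uncertain. Scripts used Python 3.11.15, pandas 2.3.3 and scipy 1.17.1, and were tested on simulated data.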

Additional observations from a re-analysis of the deposited data

How the results depend on the processing

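The number of members was 27 at a control mean of at least 100, 75 at log2 limits of -0.4, 24 at -0.75 and 7 at -1, against 49 as reported. Of the 19 members called in Qk5 depletion, 12 were called at adjusted p under 0.01, and 36 members had an unadjusted p under 0.05. Of the 26 called in Qk6/7 depletion, 16 had a control mean of at least 100, and 45 members had an unadjusted p under 0.05. Calls in both numbered 10 at adjusted p under 0.1 and 32 at an unadjusted p under 0.05, against 6. The median log2 ratio in Qk6/7 depletion moved from -1.16 to -0.95 at control means of at least 100. Members with an exon bin numbered 2 in place of 1 when any listed bin, or adjusted p under 0.1, counted. With 3′ UTRs of at least 1000 bases, a setting chosen after the data were seen, the shares were 82.6% (CTCTGAA pair), 60.9% (GTCTTAA pair), 47.8% (both), 4.35% (neither) and 47.8% (Quaking core), where fewer genes with longer UTRs enter by construction. Longer promoter motifs gave 5.71% (the GAAA repeat followed by C), 5.71% (TGACNNNGC followed by A) and 2.86% (TNGCGTG). Over all promoters these shares were 0.944%, 3.45% and 5.84%, and the 5.71% for TGACNNNGC followed by A is 2 members. The remaining 24 alternative values were within 1.5 times the reported count, within 0.1 of the reported median log2 ratio or within the 95% Wilson interval of the reported share, with 38 to 62 members and up to 35 calls in Qk6/7 depletion. No paired analysis was possible because the tables hold no value per replicate, and leaving out replicates was not run for the same reason. Causes of the other shifts were not tested.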

Other observations

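Of the 46 members placed on a chromosome, 7 lie on chromosome 6, or 15.2%, against 6.28% of the placed genes of the table. Chromosome 6 is named because its count was the largest of all chromosomes, so nothing is read from it. Chromosomes 1, 8 and 17 held 0 members. Members that neighbour each other on a chromosome were Mcpt8 and Gzmd on chromosome 14, with 2 protein-coding genes between them, and Atp6v0e2 and Tmem176b on chromosome 6, with 13 between them. Of the 22 members with a control mean under 100, the median log2 ratio was -0.91 in Qk5 depletion and -1.46 in Qk6/7 depletion.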
